A study of Mus musculus with 7 samples.

Results

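Transcripts of 9 genes that mark neutrophils were followed in mouse lung: S100a8, S100a9, Retnlg, Csf3r, Ly6g, Ngp, Camp, Lcn2 and G0s2. They were taken by name from the 55401 genes of the count table, and all 9 were found. The lungs came from male C57BL/6 mice aged 6 to 8 weeks that had all received bleomycin into the airway, so no uninjured lung was compared. From day 7 the BLM+HBO group (3 mice) breathed hyperbaric oxygen at 2.5 ATA for 90 min a day over 14 days. The BLM group (4 mice) was, per the sample labels, kept in the chamber without pressurised oxygen, while the study's methods call these mice untreated. Lungs of both groups were taken on day 21.

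Neutrophils are short-lived phagocytes made in the bone marrow and released into blood. Granule proteins are transcribed in order as the cells mature: primary granule enzymes in the earliest precursors, specific granule proteins such as Ngp and Camp in later precursors, and S100a8, S100a9, Csf3r and Retnlg in the mature cell. Bleomycin injures the lung epithelium and draws neutrophils into the tissue early, before fibrosis. Several of the genes are not restricted to neutrophils: S100a8, S100a9 and Csf3r are also transcribed by monocytes, Lcn2 by injured epithelium and G0s2 by adipocytes. In whole lung, fewer cells of a type and less RNA per cell cannot be told apart.

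Total counts ranged from 18157161 to 26365969 per mouse. Values below are counts per 1000000 reads (CPM) scaled by TMM factors, which lay between 0.9635 and 1.036. Fold changes are BLM+HBO minus BLM on the log2 scale, from edgeR's quasi-likelihood test with Benjamini-Hochberg adjustment over 17465 genes. A gene was called when its unadjusted P was below 0.05 and its fold change above 1.5, which held for 6.29% of the genes tested. No gene had an adjusted P below 0.05, while 1861 (10.7%) had an unadjusted P below 0.05. DESeq2 put 128 genes (0.733%) below an adjusted P of 0.05 and limma 0.

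No neutrophil gene separated the treatment groups: the ranges of all 9 overlapped. Groups failed to overlap for only 8.77% of tested genes, so overlap in all of 9 genes does not set them apart. G0s2 was the 1 gene of the 8 tested that was called, and Ly6g had too few reads to be tested. For 7 of the 8 tested genes, Lcn2 being the exception, the SD within BLM+HBO was larger than the difference between the group means. Mouse BLM+HBO 1 held the highest level of 8 of the 9 genes, and 20.6% of tested genes were highest in that mouse.

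Bases upstream of the gene start in the count table are shown for the 2 pairs of genes with the highest Pearson correlation of log2 CPM. By Spearman rank correlation, S100a8 with Retnlg (0.964) lay above Ngp with Camp (0.857). S100a8 and S100a9 lie 22596 bases apart on chromosome 3, and Camp and Ngp lie 570129 bases apart on chromosome 9. Sequences are from RefSeq (GRCm38.p6), 5′ to 3′ on the gene's strand, at chr3:90668821-90668977 (plus), chr3:90695722-90695971 (minus), chr9:110419558-110419746 (plus) and chr9:109849618-109849706 (minus). Capitals mark matches to TTNNGNAA, a form of the site bound by C/EBP factors of the myeloid lineage, searched on both strands.
S100a8: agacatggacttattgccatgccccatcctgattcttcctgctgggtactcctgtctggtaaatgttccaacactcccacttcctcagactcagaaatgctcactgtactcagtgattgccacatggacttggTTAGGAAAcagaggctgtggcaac
S100a9: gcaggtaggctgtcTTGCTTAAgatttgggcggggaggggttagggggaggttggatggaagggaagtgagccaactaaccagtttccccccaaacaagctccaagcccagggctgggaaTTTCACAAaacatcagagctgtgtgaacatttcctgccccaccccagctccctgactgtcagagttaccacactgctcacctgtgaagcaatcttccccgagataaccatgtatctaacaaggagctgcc
Ngp: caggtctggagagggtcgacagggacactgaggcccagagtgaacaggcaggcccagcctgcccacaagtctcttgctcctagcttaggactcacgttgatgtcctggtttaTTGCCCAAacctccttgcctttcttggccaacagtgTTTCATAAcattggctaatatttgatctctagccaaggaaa
Camp: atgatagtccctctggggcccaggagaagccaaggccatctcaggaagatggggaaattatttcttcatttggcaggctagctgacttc
The printed stretches held 1 match for S100a8, 2 for S100a9, 2 for Ngp and 0 for Camp. The printed stretches end at the gene start of the count table and hold 157, 250, 189 and 89 bases. The full windows run from 250 bases before to 50 after a start that can lie elsewhere, so the bases nearest that start are not all printed. The full window of Ngp held 3 matches and that of Camp 0. The printed S100a8 match, for instance, begins at -117 in its window. In the full windows 6 of the 9 genes had a match, and 40.7% of 32851 promoters did. TATAAA, the TATA box, occurred in the windows of 3 of the 9 genes and in 13.6% of promoters. These matches describe letters and show no binding.

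S100a8 and S100a9 encode the subunits of calprotectin, the main cytosolic protein of neutrophils. S100a8 (chr3:90668978-90670035, plus strand) stood at 49.0, 34.2, 53.0 and 32.8 CPM in BLM 1 to 4 and at 117, 19.3 and 27.1 CPM in BLM+HBO 1 to 3. S100a9 (chr3:90692632-90695721, minus strand) stood at 63.1, 44.5, 83.7 and 51.8 CPM in the BLM mice and at 209.95, 26.4 and 37.8 CPM in the BLM+HBO mice. For both genes BLM+HBO 1 lay above every BLM mouse while BLM+HBO 2 and BLM+HBO 3 lay below every BLM mouse. The group means of S100a8 were 42.2 ± 10.2 CPM in BLM and 54.4 ± 54.2 CPM in BLM+HBO (SD, n = 4 and 3), a log2 fold change of 0.36 (SE 0.52). Its adjusted P was 0.837 by edgeR. S100a9 averaged 60.8 ± 17.1 and 91.4 ± 103 CPM, with a log2 fold change of 0.59 (SE 0.60, edgeR adjusted P = 0.754). The differences between group means were smaller than the spread within BLM+HBO.

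The calprotectin genes kept nearly the same proportion in every lung. The S100a9 to S100a8 count ratio lay between 1.29 and 1.80 in the 7 mice, and log2 CPM of the pair correlated with r = 0.991 over the 7 mice, or 0.975 without BLM+HBO 1. Both values are descriptions of the same 7 libraries.

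Retnlg, which encodes a resistin-like secreted protein of myeloid cells, and Csf3r, the receptor for granulocyte colony-stimulating factor, were also highest in BLM+HBO 1. Retnlg (chr16:48872621-48874496, plus strand) measured 19.5, 19.4, 22.7 and 11.8 CPM in BLM and 37.5, 9.72 and 7.27 CPM in BLM+HBO. Csf3r (chr4:126024550-126044440, plus strand) measured 41.8, 30.7, 41.2 and 56.8 CPM in BLM and 82.4, 25.1 and 24.2 CPM in BLM+HBO. Again 1 treated mouse lay above and 2 below all BLM mice, a pattern found in 0.71% of tested genes and counted after the values were seen. The group means were nearly equal, at 18.4 ± 4.60 and 18.2 ± 16.8 CPM for Retnlg (log2 fold change -0.02, SE 0.50, edgeR adjusted P = 0.992). Csf3r averaged 42.6 ± 10.7 and 43.9 ± 33.3 CPM (log2 fold change 0.04, SE 0.41, edgeR adjusted P = 0.982).

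**Figure D1:**
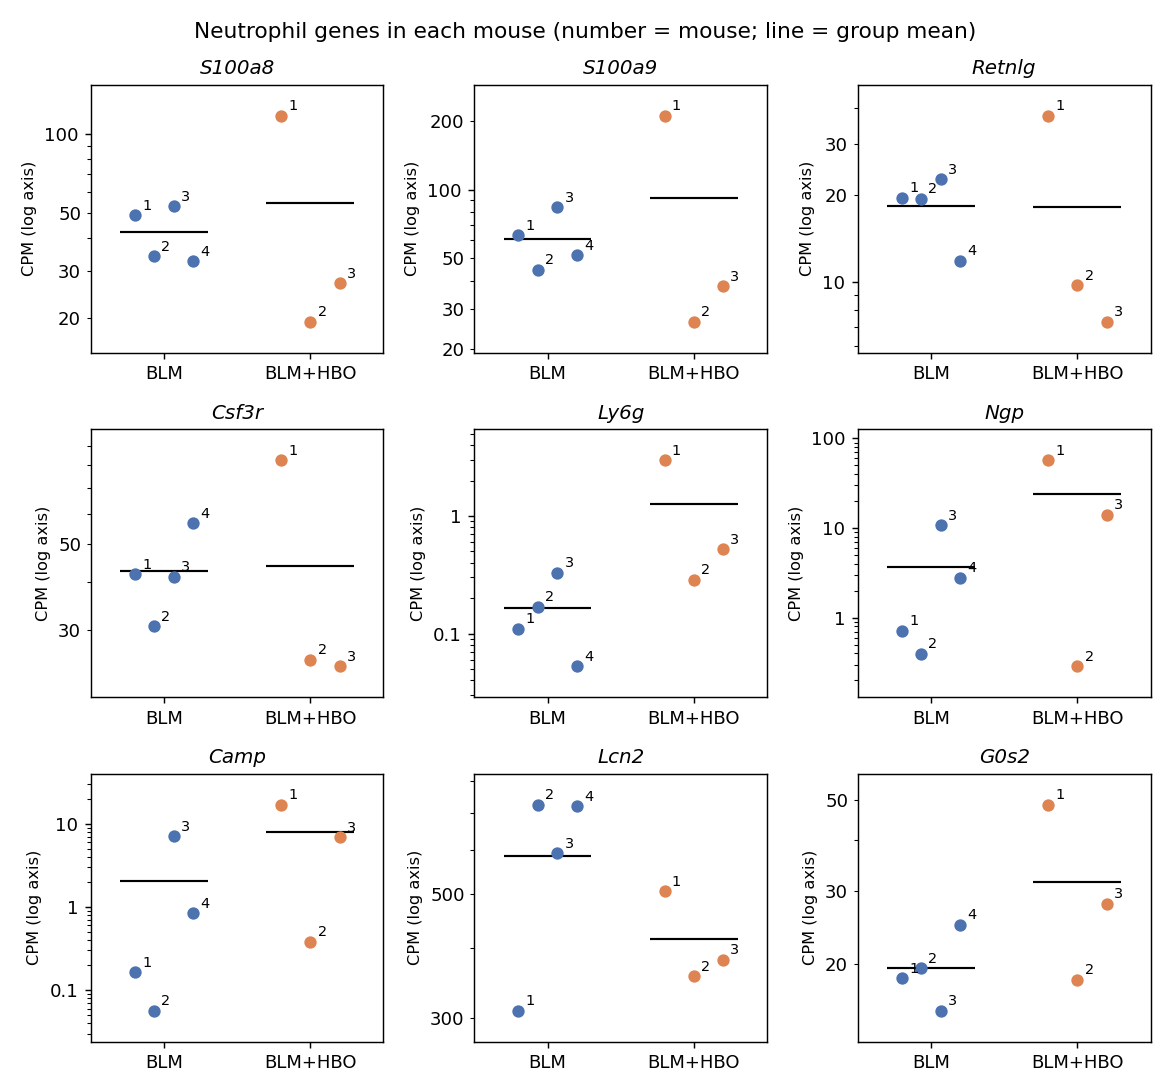
CPM of each of the 9 genes on a log axis, with 1 point per mouse numbered within its group (4 BLM, 3 BLM+HBO) and a line at the group mean. For S100a8, S100a9, Retnlg and Csf3r, BLM+HBO 1 lies above and the other treated mice below all BLM mice, and the Ngp and Camp points spread most.

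The result for these 4 genes turned on 1 mouse. Each mouse was left out in turn, and without BLM+HBO 1 all 4 were called lower in BLM+HBO. That direction was called in 1.76% of the 17831 genes tested without this mouse. The log2 fold change of S100a8 became -0.86 (SE 0.24) and that of S100a9 -0.92 (SE 0.26). For Retnlg it became -1.11 (SE 0.27) and for Csf3r -0.79 (SE 0.22). The edgeR unadjusted P values were 0.00607, 0.00656, 0.00296 and 0.00614 in that order, and each adjusted P was 0.802, so none passed the correction. The remaining treated mice lay below all BLM mice for each of these genes, as they did for 7.44% of genes.

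Without BLM+HBO 2 or without BLM+HBO 3, the fold changes of the same 4 genes lay above 0. S100a8 then measured 0.76 and 0.68, and Csf3r 0.32 and 0.32, with none called.

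Ngp and Camp encode neutrophilic granule protein and cathelicidin, stored in specific granules. Ngp (chr9:110419747-110423012, plus strand) measured 0.716, 0.395, 10.8 and 2.79 CPM in BLM and 57.0, 0.287 and 14.1 CPM in BLM+HBO. Camp (chr9:109847379-109849617, minus strand) measured 0.165, 0.0564, 7.14 and 0.842 CPM in BLM and 17.0, 0.383 and 6.94 CPM in BLM+HBO. High and low mice occurred in both groups: BLM 3, BLM+HBO 1 and BLM+HBO 3 were high, while BLM 1, BLM 2 and BLM+HBO 2 were near the limit of detection. Counts of Camp were 3 and 1 in BLM 1 and BLM 2 and 319 in BLM+HBO 1.

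The mean of Ngp was 3.68 ± 4.87 CPM in BLM and 23.8 ± 29.6 CPM in BLM+HBO. Its log2 fold change of 2.69 (SE 1.26, 95% interval -0.13 to 5.51) had an edgeR adjusted P of 0.489. Camp averaged 2.05 ± 3.41 and 8.10 ± 8.36 CPM, a log2 fold change of 1.97 (SE 1.27, edgeR adjusted P = 0.607). Neither was called, and 1 mouse on either side moved the value strongly: without BLM 3 the log2 fold changes were 4.17 and 4.46 and both genes were called (4.56% of genes were called higher), while without BLM+HBO 1 they were 0.98 and 0.85. Without BLM+HBO 2 both were called as well, at 3.26 and 2.54, where 5.29% of genes were called higher.

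Ly6g, the surface antigen used to identify mouse neutrophils, was barely detected. Its counts (chr15:75155240-75159126, plus strand) were 2, 3, 6 and 1 in BLM and 56, 6 and 14 in BLM+HBO. The exact Poisson 95% interval of the count was 42.3 to 72.7 in BLM+HBO 1 and did not reach above 13.1 in any BLM mouse. These intervals cover counting error only. BLM+HBO 2 had the same count as BLM 3, so the groups met at 6 reads.

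The granule genes and the calprotectin genes did not keep to 1 proportion across mice. S100a8 exceeded Ngp by 68.4 and 86.7 times in BLM 1 and BLM 2 and by 67.2 times in BLM+HBO 2, against 2.05 and 1.92 times in BLM+HBO 1 and BLM+HBO 3 (counts). BLM 3 and BLM 4 lay between, at 4.90 and 11.8. BLM+HBO 3 therefore held low S100a8 together with high Ngp. Log2 CPM of Ngp and Camp correlated with r = 0.960 over the 7 mice and S100a8 and Ngp with 0.667, or 0.943 and 0.302 without BLM+HBO 1. The Ngp to Camp count ratio lay between 0.75 and 7.0 in the 7 mice.

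Primary granule genes, transcribed in the earliest precursors, were low in every mouse. Mpo, which encodes myeloperoxidase, had 1, 1, 32 and 1 reads in BLM and 8, 4 and 16 in BLM+HBO. Elane, neutrophil elastase, had 1, 0, 13 and 0 reads in BLM and 6, 1 and 12 in BLM+HBO. BLM 3, BLM+HBO 1 and BLM+HBO 3, the mice with most Ngp and Camp, also had the most Mpo and Elane. The other 2 primary granule genes did not share this order. Ctsg, cathepsin G, had 2, 0, 2 and 1 reads in BLM and 14, 0 and 10 in BLM+HBO. Prtn3, proteinase 3 and the 1 gene of the list with enough reads to be tested, measured 1.98, 1.92, 2.53 and 2.26 CPM in BLM and 4.42, 0.909 and 1.01 CPM in BLM+HBO. BLM+HBO 3 thus lay below every BLM mouse for Prtn3, whose log2 fold change was -0.06 (SE 0.53, edgeR adjusted P = 0.980). Mpo, Elane and Ctsg are named here after their values were seen.

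Lcn2, which encodes the iron-siderophore-binding protein lipocalin 2, was the most abundant of the 9 per length, at 196 CPM per kb over all mice. S100a9 followed at 142 and S100a8 at 68.4 CPM per kb, while Ly6g was lowest at 0.676. Lcn2 (chr2:32384633-32388252, minus strand) measured 309, 724, 593 and 720 CPM in BLM and 507, 357 and 382 CPM in BLM+HBO. It was the 1 gene not highest in BLM+HBO 1: 3 BLM mice lay above all treated mice and BLM 1 below them. The means were 587 ± 195 and 415 ± 80.2 CPM, a log2 fold change of -0.50 (SE 0.27, edgeR adjusted P = 0.544). Without BLM 1 it was -0.71 and Lcn2 was called (edgeR adjusted P = 0.712), as were 1.76% of genes in that direction. Its correlation with the other 8 genes over the 7 mice lay between -0.12 and 0.34.

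G0s2, an inhibitor of adipose triglyceride lipase, measured 18.4, 19.5, 15.4 and 24.9 CPM in BLM and 48.7, 18.3 and 28.0 CPM in BLM+HBO (chr1:193272161-193273217, minus strand). BLM+HBO 1 and BLM+HBO 3 lay above every BLM mouse and BLM+HBO 2 within the BLM range. The means were 19.6 ± 3.97 and 31.6 ± 15.5 CPM. The log2 fold change of 0.69 (SE 0.29, 95% interval 0.03 to 1.35) was called at an unadjusted P of 0.0414 in edgeR, with an adjusted P of 0.459. Without BLM+HBO 1 it was 0.24, and the call was also lost without BLM 1, BLM 2, BLM 3 or BLM+HBO 3.

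**Figure D2:**
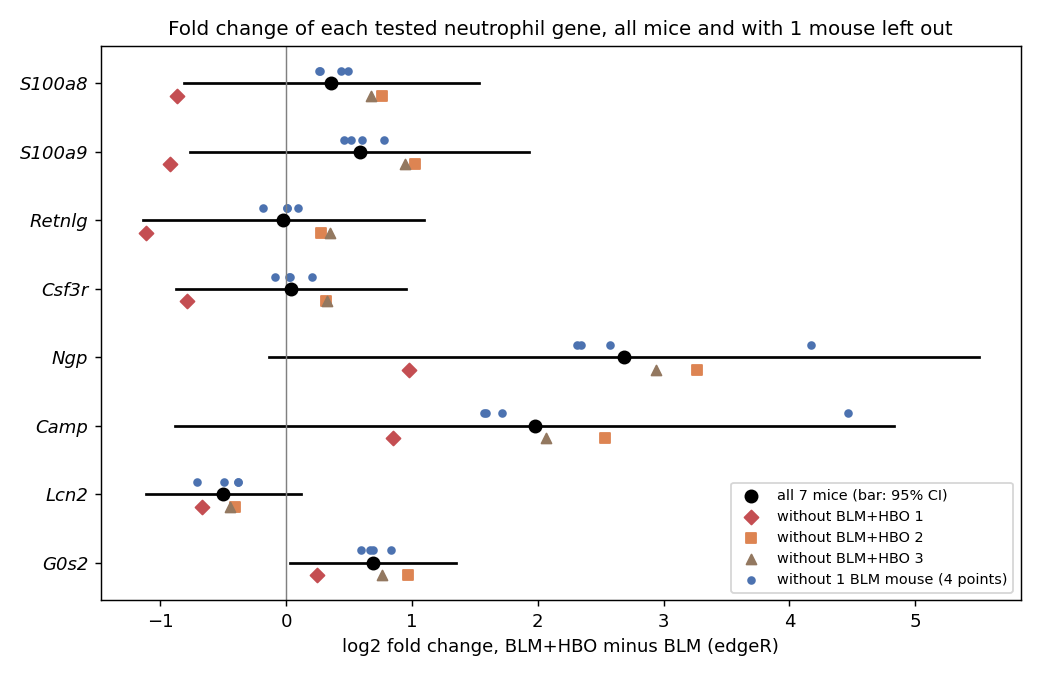
Log2 fold change of BLM+HBO minus BLM (edgeR) for the 8 tested genes, with the 95% interval over all 7 mice and points for fits with 1 mouse left out. Leaving out BLM+HBO 1 takes S100a8, S100a9, Retnlg and Csf3r to between -0.79 and -1.11, and leaving out BLM 3 takes Ngp and Camp above 4.

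The spread within BLM+HBO was wide against other genes for most of the 9 and not for Lcn2. The coefficient of variation there was 99.6% for S100a8, 113% for S100a9, 92.5% for Retnlg and 75.9% for Csf3r, while the median of all tested genes was 15.8%. In BLM the same 4 genes varied by 24.2% to 28.1%. Ngp and Camp varied widely in both groups, by 133% and 166% in BLM and 124% and 103% in BLM+HBO. G0s2 varied by 20.3% in BLM and 49.0% in BLM+HBO. Lcn2 went the other way, with 33.2% in BLM and 19.3% in BLM+HBO.

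Other genes tied to neutrophils were read from 7 wider lists of 66 genes, of which 55 were tested. The lists hold neutrophil transcripts and also growth factors, chemokines and binding partners that other cells make. The calls of Csf3, Cxcl1, Cxcl5 and Ppbp are therefore not calls of neutrophil transcripts. Which cells gave the reads of the other called genes was not tested. Of the 55 genes tested, 9 were called lower in BLM+HBO and 1 higher, against 2.89% and 3.4% of all tested genes. All 10 had edgeR adjusted P values above 0.05 with all 7 mice. The DESeq2 adjusted P was below 0.05 for Ltf (0.0113), C5ar1 (0.0124) and Cxcl5 (0.0152). Without BLM+HBO 2, the edgeR adjusted P was below 0.05 for Ltf (0.0308), C5ar1 (0.0358) and Ppbp (0.045).

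Among 10 specific and gelatinase granule genes, 3 were called lower and the median log2 fold change was -0.43, against 0.01 for all tested genes. Ltf, lactoferrin, measured 108, 141, 152 and 149.9 CPM in BLM and 72.9, 98.7 and 64.5 CPM in BLM+HBO, without overlap. Its log2 fold change was -0.81 (SE 0.17, edgeR adjusted P = 0.423). Ltf thus lay between 64.5 and 152 CPM in all 7 mice, including those with almost no Ngp or Camp. Cd177, a neutrophil surface glycoprotein, had a log2 fold change of -1.38 and Chil3, a chitinase-like protein also made by macrophages, of -1.06, both with overlapping groups. Cd177 measured 412, 126, 551 and 266 CPM in BLM and 164, 152 and 74.5 CPM in BLM+HBO. These levels in BLM lay above those of S100a8, at 32.8 to 53.0 CPM, and the source of the Cd177 reads was not tested. The Chil3 call was lost with DESeq2, limma-trend and robust fitting and on leaving out either BLM 1 or BLM 2, or likewise BLM+HBO 1 or BLM+HBO 3. With BLM 2 left out the Chil3 value was -0.60. The Cd177 call was lost under the replicate block.

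Of 16 other neutrophil transcripts tested, Il1r2 and Trem1 were called lower and 0 higher. Of the same 16, 7 lay above 0 and 9 below, with a median log2 fold change of -0.15. Il1r2, the decoy receptor for interleukin-1, measured 4.12 to 6.17 CPM in BLM and 1.46 to 3.97 CPM in BLM+HBO. Its log2 fold change was -0.98 (SE 0.35, edgeR adjusted P = 0.423). Trem1, an activating receptor of myeloid cells, had -0.76. The Trem1 call was lost without BLM 1, BLM 2, BLM 4 or BLM+HBO 3 and the Il1r2 call without BLM+HBO 3.

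The growth factor Csf3, the ligand of Csf3r, was called lower: it measured 1.10, 0.338, 0.878 and 1.68 CPM in BLM and 0.0532, 0.239 and 0.225 CPM in BLM+HBO. The groups did not overlap and the log2 fold change was -2.46 (SE 0.66, edgeR adjusted P = 0.423). Csf3 rests on few reads: 20, 6, 16 and 32 in BLM and 1, 5 and 6 in BLM+HBO. Too few reads passed to test it under the filter of 1 CPM in 3 mice, or without BLM 1, BLM 3 or BLM 4. BLM+HBO 1, with 1 read of Csf3, had the most Csf3r, but such counts cannot rank the treated mice. Csf3 was the 1 gene called among the 4 granulopoiesis genes tested, whose median was -0.45. The remaining partners of the 9 genes, among them the calprotectin receptors Tlr4 and Ager, the Lcn2 receptor Slc22a17 and the G0s2 target Pnpla2, were not called.

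Among 16 chemoattractants and receptors, 12 lay below 0 and the median was -0.35. Cxcl5, a neutrophil-attracting chemokine of the lung epithelium, measured 21.1, 5.19, 5.33 and 8.58 CPM in BLM and 2.56, 3.11 and 2.36 CPM in BLM+HBO. Its groups did not overlap (log2 fold change -1.91, SE 0.50, edgeR adjusted P = 0.423), and without BLM 1 the value was -1.25. C5ar1, the receptor for complement C5a, did not overlap either, at -1.06 (SE 0.24, edgeR adjusted P = 0.423). Cxcl1, named after its values were seen, was called at -1.66, a call lost without BLM+HBO 3 and under the replicate block. Ppbp, a chemokine of platelets, was called higher at 2.08 (SE 0.55). It measured 4.79, 4.17, 5.93 and 8.90 CPM in BLM and 53.8, 9.96 and 12.3 CPM in BLM+HBO, without overlap. Without BLM+HBO 1 the value for Ppbp was 0.90 (SE 0.305) and the gene was still called. Of the 6 subunits of the phagocyte NADPH oxidase, 0 were called and the median was -0.13.

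**Figure D3:**
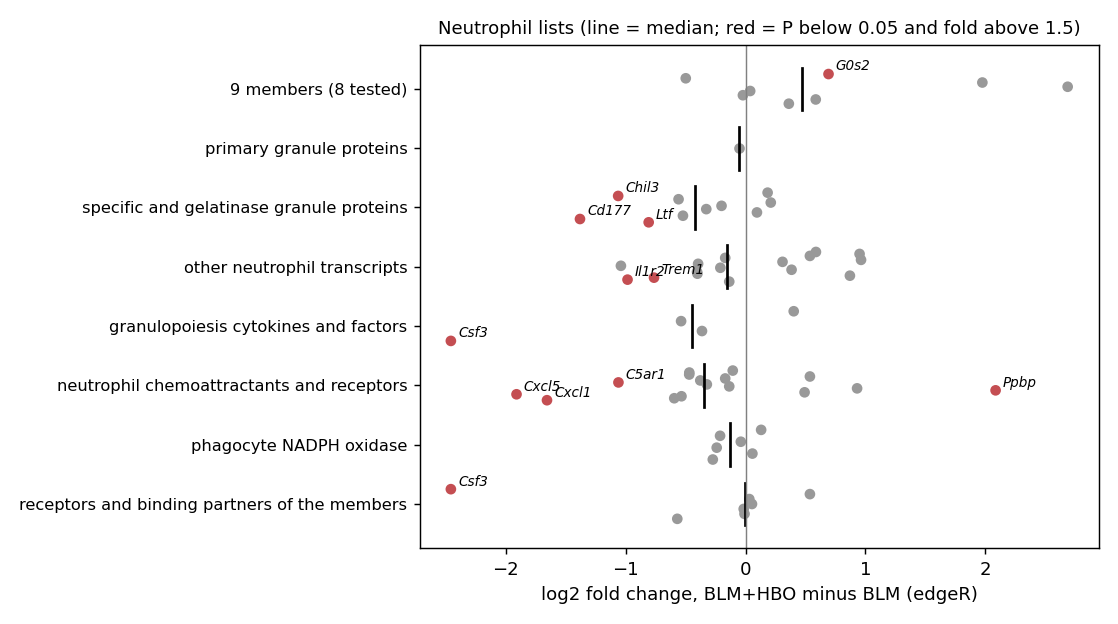
Log2 fold change of BLM+HBO minus BLM (edgeR) for the tested genes of the 9 and of 7 wider neutrophil lists, with a line at each list's median and called genes in red. Medians of the wider lists lie between -0.45 and -0.01 and that of the 8 tested members at 0.47, and Ppbp is the 1 red point of the wider lists above 0.

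Without BLM+HBO 1, the 8 tested neutrophil genes had a median of -0.73 and the wider lists held 15 genes called lower and 1 higher of 58 tested (1.76% and 1.93% of all genes). Without BLM+HBO 2, the same lists held 16 called lower and 4 higher (5.41% and 5.29% of all genes).

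Many, though not all, markers of other blood cells were also highest in BLM+HBO 1. Of 5 classical monocyte markers, 4 were highest in this mouse, among them Ly6c2 at 61.3 CPM against 15.4 to 26.7 CPM elsewhere and Plac8 at 108 against 43.9 to 56.3 CPM. F13a1, the fifth, was the 1 marker called and was lower in BLM+HBO, at 210, 128, 83.5 and 51.8 CPM in BLM and 61.4, 49.3 and 25.8 CPM in BLM+HBO (log2 fold change -1.38). The summed level of the 5 ranged from 236 to 402 CPM in BLM and from 158 to 407 CPM in BLM+HBO. Of 9 erythroid and platelet markers, 5 were highest in BLM+HBO 1, and their sum ranged from 1452 to 3584 CPM in BLM and from 1890 to 3321 CPM in BLM+HBO. Of 5 non-classical monocyte markers, 4 were highest in BLM+HBO 1 and Treml4, Cd300e and Nr4a1 were called higher. Without BLM+HBO 1 these 3 calls were lost, at log2 fold changes of 0.69, 0.84 and 0.77. Ace, the fifth, was lowest in BLM+HBO 1, at 755 CPM against 967 to 1491 CPM in BLM. The summed level of the non-classical markers ranged from 1042.8 to 1550.5 CPM in BLM and from 998.2 to 1363 CPM in BLM+HBO. BLM+HBO 1 had the lowest sum. The part of these blood cell markers in the levels of the 9 genes was not tested.

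Markers of the other sources of Lcn2 and G0s2 were read beside them. The 6 alveolar type 2 markers summed to 8745 to 16004 CPM in BLM and 11109 to 27488 CPM in BLM+HBO, with all 6 log2 fold changes above 0 and Sftpa1 called higher. The 6 airway secretory markers summed to 5500 to 11865 and 9217 to 17959 CPM. Scgb1a1, called higher, made up most of that sum, while 4 of the 6 lay below 0 with a list median of -0.73 and Bpifb1 was called lower. The adipocyte markers summed to 1.65 to 4.17 and 3.11 to 7.01 CPM, with 0 of the 3 tested called. The eosinophil markers summed to 7.16 to 10.03 and 8.85 to 12.2 CPM, with Prg2 called lower, and the mast cell and basophil markers to 4.96 to 5.75 and 5.10 to 7.77 CPM, with 0 called. Their part was likewise not tested.

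**Figure D4:**
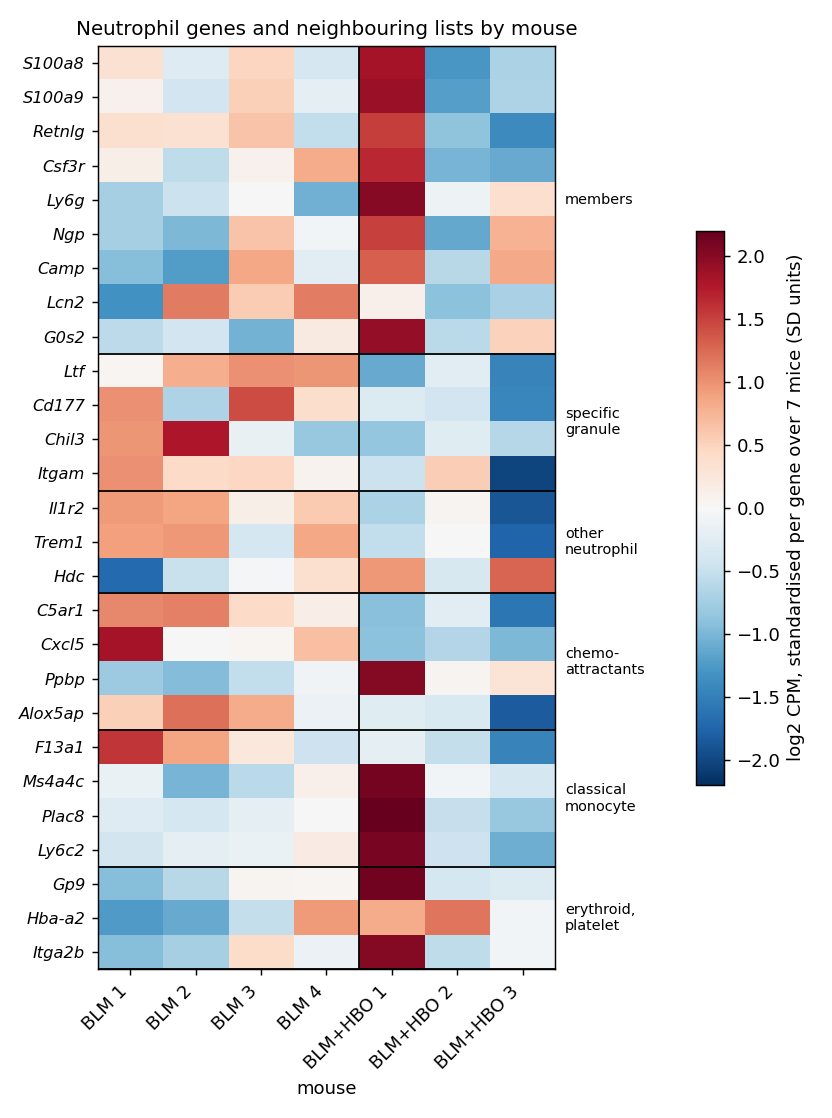
Log2 CPM standardised over the 7 mice (SD units) for the 9 genes and for up to 4 genes with the smallest P of each neighbouring list, with mice in columns and Ppbp shown once. BLM+HBO 1 is high for 8 of the 9 genes and for Ppbp, Ly6c2, Plac8, Ms4a4c, Gp9 and Itga2b, and low for Ltf, C5ar1 and Cxcl5.

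The genes with the most similar pattern over the 7 mice were sought among 15797 genes with a mean of at least 1 CPM, by Pearson correlation of log2 CPM. For S100a8 with S100a9 these were Psapl1 (r = 0.966), Tagap, Calhm6, Adgb and 4921531C22Rik. For Ngp with Camp they were Vwa3b (r = 0.976), Ccdc92, Glt1d1, Ccdc151 and Ldb1. Lcn2 was closest to Wfdc21 (r = 0.990), Lrrc8d, Bace2, Anp32e and Gfm1, and G0s2 to Fmo1 (r = 0.988), B3gnt5, Shisa2, Lrch1 and Parp12. With 7 mice and this many genes, high values arise readily and describe these libraries alone.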

How the data were processed

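Per the labels, RNA was extracted from mouse lung with Trizol and libraries were made with an NEBNext Ultra kit. The authors aligned reads to GRCm38 with HISAT2 (2.2.0 in the submitters' processing notes) and deposited featureCounts raw counts per gene for 7 libraries, 1 per mouse. Symbols were taken from the GENCODE annotation by gene identifier, and no neutrophil gene shared exon bases with another gene. Genes passing filterByExpr (minimum count 10, minimum total 15) were scaled by TMM and tested with edgeR 4.0.16 (glmQLFit and glmQLFTest, R 4.3.3) without covariates. DESeq2 1.42.0, limma 3.58.1, RLE and upper-quartile scaling, other count filters, robust fitting, a replicate block and leaving out each mouse were alternatives. The code was tested on simulated data. Genes were named by rule: the 9 genes, at most 4 per other list by smallest P, all receptors and partners, and 5 genes per likeness pattern. The genes and lists were chosen with earlier results of these data known. P values set the difference between the groups against the spread between these mice. Protein sequences were not used here, and 1 gene that the rule names is not reported here. The precision of low counts is set by depth, which differed by less than 1.5 times between libraries.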

Additional observations from a re-analysis of the deposited data

How the results depend on the processing

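Of the 9 genes, 1 was called in the main analysis and 0 passed the adjusted P. Without a filter on low counts 4 were called and 2 passed the adjusted P (Ngp and Ly6g, the latter at 2.87), and with limma-trend 0 were called. Leaving out 1 mouse gave 0 to 4 calls and 0 adjusted. In the wider lists 10 genes were called and 0 adjusted, against 7 adjusted without a filter and 3 with DESeq2, and leaving out 1 mouse gave 7 to 20 calls and 0 to 3 adjusted, the highest of both without BLM+HBO 2. Among all genes the calls numbered 1098, from 659 without BLM+HBO 1 to 1914 without BLM+HBO 2, and 1940 with 387 adjusted without a filter.

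Same-numbered mice were not treated as pairs in the main analysis. The correlations of their deviations from group means were -0.008, -0.066 and 0.161, which cannot show whether these mice were handled together. A replicate block left 1 of the 9 genes called and called 1258 genes in all. Under the block S100a8 turned to -0.19, S100a9 to -0.094, Csf3r to -0.027, Ager to 0.043, Cidea to -0.041 and Mcpt4 to -0.061. With limma-trend S100a8 turned to -0.068, Csf3r to -0.17 and Ager to 0.013. With upper-quartile factors Retnlg turned to 0.0063, Ager to 0.0125 and Bsg to 0.0070. The cause was not tested.

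Leaving out 1 mouse turned the sign of these log2 fold changes, given as lowest and highest: S100a8 -0.86 to 0.76, S100a9 -0.92 to 1.02, Retnlg -1.11 to 0.35, Csf3r -0.79 to 0.32, Prtn3 -1.17 to 0.30, Csf2 -0.80 to 0.011, Rac2 -0.15 to 0.34, Ager -0.15 to 0.089, Bsg -0.10 to 0.056, Slc22a17 -0.090 to 0.19, Pnpla2 -0.12 to 0.16, Plac8 -0.19 to 0.56, Ly6c2 -0.39 to 0.80, Cidea -0.13 to 0.73, Gp9 -0.044 to 1.60, Itga2b -0.0012 to 0.89, Ccr3 -0.13 to 0.77 and Mcpt4 -0.021 to 0.62. Over all alternatives, 805 recomputed values kept their direction and side of the threshold, 46 changed sign, 55 passed the threshold anew and 55 fell short of it.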
